A study of Mus musculus with 16 samples.

Results

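The levels of 9 transport genes of the retinal pigment epithelium (RPE), out of 51912 genes in the count table, were followed across wild-type and SUCNR1-knockout mice with and without hydroquinone. They were picked by name as the chloride, potassium, sodium and monocarboxylate transport genes of this epithelium: Best1, Clcn2 and Slc4a2 for chloride, Kcnj13 for potassium, Slc12a2 and Atp1b1 for sodium, and Slc16a1, Slc16a8 and Bsg for lactate. All 9 passed the filter on low counts and were among the 15380 genes tested. No member passed the test in any comparison (0 of 9, where between 0.0% and 0.0845% of all genes tested did). For 8 of the 9, the 95% intervals of the average change with hydroquinone and with knockout stayed within 1.5-fold either way. These intervals come from a fit that counts 2 eyes of a mouse as separate libraries, and the width was chosen after the values were seen.

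RNA was sequenced from the RPE of male C57BL/6 mice aged 40 weeks, after the anterior eye and the retina had been taken away and the RPE had been lifted from the choroid with forceps. The 16 libraries formed 4 groups of 4: wild type untreated (2 mice), wild type with hydroquinone (4 mice), SUCNR1 knockout untreated (3 mice) and SUCNR1 knockout with hydroquinone (4 mice). Mice with hydroquinone are called exposed below. SUCNR1 is the receptor for succinate, and hydroquinone is an oxidant used to stress the RPE. The titles name 13 mice, 3 of which gave both eyes, whereas the protocol text gives 4 animals a group. The knockout allele and the dose and route of hydroquinone are not given in the sources used here.

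The RPE is a single pigmented cell layer between the photoreceptors and the choroid. Its sodium pump sits, unusually, on the apical side facing the photoreceptors, where it works with the potassium channel Kir7.1 (Kcnj13), which returns potassium, and with the cotransporter NKCC1 (Slc12a2), which loads the cell with chloride. Chloride leaves across the basolateral membrane, fluid follows, and lactate released by the photoreceptors enters through MCT1 (Slc16a1) and leaves towards the choroid through MCT3 (Slc16a8), both held in the membrane by basigin (Bsg).

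Total counts per library ran from 21113549 to 35332444. Sucnr1 itself had 29 counts over the 8 wild-type libraries, 4 of them at 0, and 4 counts over the 8 knockout libraries, 6 of them at 0, so it was too low to check the genotype of a single library. All 10 RPE markers that are not members were detected, and their summed level lay between 15489 and 24587 CPM (counts scaled to a library of 1000000). RNA of other tissue was present in all libraries and varied widely: the 12 rod markers summed to 251.0 to 23152 CPM, the 6 oligodendrocyte markers to 143.6 to 10085 CPM and the 6 corneal epithelium markers to 3367 to 27717 CPM. The rod marker Gnat1, the transducin alpha subunit, ranged from 16.6 to 3856 CPM, and none of the 12 was at 0 in any library. In bulk tissue, fewer RPE cells and less RNA per cell cannot be told apart.

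Promoter windows were matched by symbol in RefSeq (GRCm38.p6) for 7 of the 9 genes, covering 250 bases before to 50 bases after a start site, and Bsg and Slc12a2 had no entry. The windows of 4 genes are shown because the results below set these genes against each other: the channels of lowest and of high level, and the transporters of the apical and basolateral lactate steps. Capitals mark matches to 4 motifs searched on both strands, CACGTG (an E-box), CATGTG (an M-box core), TAATCC (the site bound by OTX proteins) and TGACNNNGC (the core of the antioxidant response element).
Best1, chr19:10001584-10001883, minus strand: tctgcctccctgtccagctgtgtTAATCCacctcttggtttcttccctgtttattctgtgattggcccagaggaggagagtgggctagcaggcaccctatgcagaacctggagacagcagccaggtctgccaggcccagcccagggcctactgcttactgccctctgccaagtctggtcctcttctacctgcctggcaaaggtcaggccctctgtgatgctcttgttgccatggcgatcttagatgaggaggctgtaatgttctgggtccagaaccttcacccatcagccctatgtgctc
Kcnj13, chr1:87394680-87394979, minus strand: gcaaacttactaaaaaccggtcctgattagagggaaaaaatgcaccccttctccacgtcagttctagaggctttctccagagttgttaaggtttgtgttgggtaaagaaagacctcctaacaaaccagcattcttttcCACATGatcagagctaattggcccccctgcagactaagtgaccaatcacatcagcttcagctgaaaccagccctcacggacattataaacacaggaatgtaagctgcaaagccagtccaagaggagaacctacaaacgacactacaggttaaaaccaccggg
Slc16a1, chr3:104638414-104638713, plus strand: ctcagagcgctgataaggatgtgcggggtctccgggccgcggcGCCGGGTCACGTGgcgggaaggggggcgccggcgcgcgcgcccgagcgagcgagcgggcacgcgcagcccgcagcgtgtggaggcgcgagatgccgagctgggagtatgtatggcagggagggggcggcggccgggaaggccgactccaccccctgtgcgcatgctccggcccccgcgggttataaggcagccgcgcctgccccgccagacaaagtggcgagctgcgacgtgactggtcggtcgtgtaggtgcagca
Slc16a8, chr15:79254699-79254998, minus strand: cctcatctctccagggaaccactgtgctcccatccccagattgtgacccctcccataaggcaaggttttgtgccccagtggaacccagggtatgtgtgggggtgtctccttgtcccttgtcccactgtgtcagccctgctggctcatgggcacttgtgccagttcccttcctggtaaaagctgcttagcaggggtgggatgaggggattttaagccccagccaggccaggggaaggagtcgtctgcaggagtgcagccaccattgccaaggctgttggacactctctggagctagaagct

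Each motif was found in 1 of the 8 member windows (Slc4a2 has 2). CACGTG, in the Slc16a1 window at -200 from the start site, occurs in 7.15% of all 32851 windows of this length. TGACNNNGC, which overlaps it on the other strand at -207, occurs in 12.4% of them. CATGTG was found in the Kcnj13 window at -112 on the minus strand of the window and occurs in 14.2% of windows, and TAATCC was found in the Best1 window at -227 and occurs in 7.06%. The Slc16a8 window held none of the 4. With 8 windows, these matches describe the letters shown and nothing about what binds there. The windows also differ in composition: G and C made up 73.7% of the Slc16a1 window, 58.3% for Slc16a8, 56.3% for Best1 and 46.0% for Kcnj13, against a median of 52.7% over all windows.

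Compared per kilobase of exon (CPM per kb), the members covered most of the range of the 15355 genes ranked, which include RNA of other tissue. Bsg was the highest, at 1009 ± 110.1 CPM per kb (SD, n = 16 libraries), above 99.8% of the genes ranked. Slc16a8 followed at 229 ± 34.6, Atp1b1 at 193 ± 33.7, Kcnj13 at 182 ± 36.8 and Slc16a1 at 158 ± 26.2 CPM per kb, all above at least 98.6% of genes. Slc4a2 stood at 57.3 ± 9.39, Slc12a2 at 35.5 ± 4.99 and Clcn2 at 11.9 ± 1.53 CPM per kb. Best1 stood at 0.807 ± 0.233 CPM per kb, rank 13701 of 15355, above only 10.8% of genes.

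Not every step in that order exceeded the spread between libraries. Bsg exceeded Slc16a8 in 16 of 16 libraries with no overlap of their ranges, and the same held for Slc16a1 over Slc4a2, Slc12a2 over Clcn2 and Clcn2 over Best1. Slc4a2 exceeded Slc12a2 in 16 of 16 libraries, by a median of 1.5 times, although their ranges overlapped. Neighbours among the 4 genes from Slc16a8 to Slc16a1 were not separated in every library: Slc16a8 was above Atp1b1 in 13 of 16 libraries, Atp1b1 above Kcnj13 in 11 and Kcnj13 above Slc16a1 in 15, with overlapping ranges each time. The ends of that run were ordered, since Slc16a8 exceeded Slc16a1 per kilobase in 16 of 16 libraries. The place of Kcnj13 in the order is less sure. Of its exon sequence 49.1% is shared with Gigyf2 on the opposite strand, and how reads there were counted is not known.

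**Figure D1:**
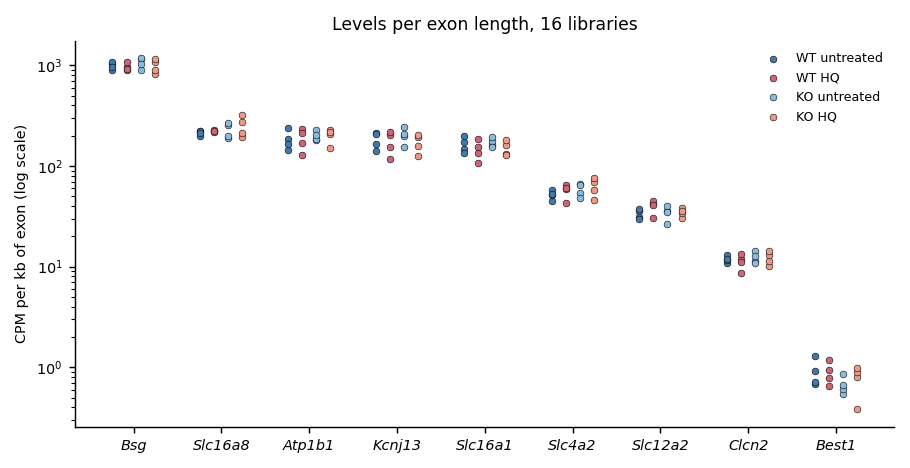
Level of the 9 genes in CPM per kilobase of exon, on a log axis, with 1 point per library, coloured by group (WT wild type, KO knockout, HQ hydroquinone). Bsg lies at the top with a mean of 1009 and Best1 at the bottom with 0.807, and the ratio of Clcn2 to Best1 had a median of 14.9 over libraries.

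Best1 encodes bestrophin-1, the calcium-gated chloride channel of the RPE basolateral membrane that is mutated in Best vitelliform macular dystrophy, and it is commonly used to mark this cell. Its RNA was nevertheless close to the limit of this table, with 29 to 85 counts in a library, which makes it the least precise of the 9. The gene (ENSMUSG00000037418) lies on the minus strand at chr19:9985174-10001633 (GRCm38), and its 13 exon blocks add up to 2579 bp. The untreated wild-type libraries held 1.76, 2.39, 3.33 and 1.83 CPM and the wild-type libraries with hydroquinone 2.01, 2.45, 1.67 and 3.02 CPM. The untreated knockout libraries held 1.39, 1.57, 1.71 and 2.21 CPM and the knockout libraries with hydroquinone 0.988, 2.08, 2.33 and 2.56 CPM. The single highest value was an untreated wild-type library and the single lowest a knockout library with hydroquinone, and all 4 groups overlapped. That lowest library, knockout with hydroquinone replicate 1, also had the highest rod score of its group, and the part of this in the value was not tested. With hydroquinone averaged over genotype, the log2 fold change was 0.09 (SE 0.234, 95% interval -0.41 to 0.59), and it ran from 0.01 to 0.20 with 1 library left out. With knockout averaged over treatment it was -0.32 (SE 0.235), or 0.802-fold. The interval ran from 0.567-fold to 1.14-fold, so at this depth neither no change nor a true level of 0.567 times wild type was excluded. Best2, another bestrophin and not a member, was higher per kilobase in 16 of 16 libraries, by a median of 10.8 times (range 4.41 to 21.6). It was singled out after its values were seen. Which tissue the Best2 RNA came from was not tested. The 6 markers listed for ciliary body and iris summed to 242.3 to 473.3 CPM, the highest of them being Oca2 at 107.2 to 207.9 CPM. Whether RNA of these markers came from the RPE or from ciliary body and iris was not tested either.

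Kcnj13 encodes Kir7.1, the inwardly rectifying potassium channel of the apical membrane, and is mutated in a childhood retinal dystrophy. It lies on the minus strand at chr1:87386363-87394729 (ENSMUSG00000079436, 3 exon blocks, 1270 bp). Of its exon sequence 623 bp, 49.1%, is shared with Gigyf2 on the opposite strand, and since the strand setting of the counting is not given in the sources used here, reads from the pair cannot be told apart in that stretch. Untreated wild-type libraries held 209, 271, 262 and 179 CPM and wild-type libraries with hydroquinone 195, 150.9, 257 and 279 CPM. Untreated knockout libraries held 255, 309.9, 264 and 197.5 CPM and knockout libraries with hydroquinone 159, 201, 246 and 260.3 CPM. The highest library was untreated knockout and the lowest was wild type with hydroquinone, and each group reached into the range of the other 3. The hydroquinone log2 fold change averaged over genotype was -0.15 (SE 0.151, interval -0.48 to 0.17) and the knockout one was 0.06 (SE 0.151).

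Clcn2 encodes ClC-2, a voltage-gated chloride channel whose loss causes retinal degeneration in mice. It lies on the minus strand at chr16:20702964-20717746 (ENSMUSG00000022843, 19 exon blocks, 6022 bp), sharing 85 bp of exon with Fam131a and 82 bp with Polr2h on the opposite strand. Untreated and exposed wild-type libraries averaged 71.3 ± 4.96 and 67.7 ± 12.2 CPM, and untreated and exposed knockout libraries 74.9 ± 9.54 and 73.4 ± 11.1 CPM (SD, 4 libraries a group). The 16 libraries ran from 51.6 to 87.1 CPM and the 4 means lay closer together than the SD of either exposed group. Its log2 fold change with hydroquinone was -0.05 (SE 0.0997), and with knockout 0.09 (SE 0.0997).

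Slc4a2 encodes the anion exchanger AE2, which swaps bicarbonate for chloride at the basolateral side and so bears on cell pH. The gene is on the plus strand at chr5:24423837-24440950 (ENSMUSG00000028962, 23 exon blocks, 8322 bp), and 1141 bp of its exons (13.7%) are shared with Fastk on the opposite strand. Untreated wild-type libraries held 370.3, 479, 433 and 435 CPM, against 497, 361, 540.2 and 505 CPM in wild type with hydroquinone. Untreated knockout libraries held 549.99, 452, 540.2 and 397 CPM, against 382, 481, 575 and 629 CPM in knockout with hydroquinone. The lowest library was wild type with hydroquinone and the highest knockout with hydroquinone, so exposed mice lay at both ends of the range. The log2 fold change was 0.12 (SE 0.119) with hydroquinone and 0.15 (SE 0.119, interval of 0.928-fold to 1.32-fold) with knockout.

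Slc12a2 encodes NKCC1, the sodium-potassium-chloride cotransporter that loads the RPE with chloride from the apical side. It lies on the plus strand at chr18:57878678-57946821 (ENSMUSG00000024597, 27 exon blocks, 10920 bp). Untreated wild-type libraries held 391, 338, 412 and 323 CPM and wild-type libraries with hydroquinone 455, 332, 486 and 445 CPM. Untreated knockout libraries held 386, 437, 384 and 291 CPM and knockout libraries with hydroquinone 332, 423, 369.7 and 392 CPM. In wild type, 3 of the 4 exposed libraries exceeded all 4 untreated ones and the other lay among them, whereas in knockout the exposed libraries lay within the untreated range. The log2 fold change averaged over genotype was 0.12 (SE 0.103), and its interaction with genotype, the hydroquinone change in knockout minus that in wild type, was -0.21 (SE 0.207), with a 95% interval from -0.65 to 0.23.

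Atp1b1 encodes the beta-1 subunit of the sodium pump, needed for the pump to reach the membrane. It lies on the minus strand at chr1:164437109-164458355 (ENSMUSG00000026576, 7 exon blocks, 3081 bp), and 575 bp of its exons (18.7%) are shared with Nme7 on the opposite strand. Untreated and exposed wild-type libraries averaged 568 ± 122 and 575 ± 145 CPM, and the knockout ones 616 ± 62.0 and 617 ± 107 CPM (SD, 4 libraries a group). Libraries ran from 399 to 733 CPM, and both ends of that range were wild type. The log2 fold change was 0.01 (SE 0.138) with hydroquinone and 0.11 (SE 0.138) with knockout.

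Slc16a1 encodes MCT1, the lactate transporter of the apical membrane, and lies on the plus strand at chr3:104638668-104658462 (ENSMUSG00000032902, 5 exon blocks, 4426 bp). Untreated wild-type libraries held 652, 765, 879.5 and 591 CPM and wild-type libraries with hydroquinone 596, 473, 826 and 691 CPM. Untreated knockout libraries held 721, 781, 856 and 683 CPM and knockout libraries with hydroquinone 589, 567, 713 and 804 CPM. The lowest value of all was in wild type with hydroquinone and the highest in untreated wild type, and the groups overlapped in both genotypes. Its log2 fold change with hydroquinone was -0.17 (SE 0.125, interval -0.44 to 0.09), the lowest p of the 9 in that comparison at an unadjusted 0.187 and an adjusted 0.914 by edgeR. With knockout it was 0.06 (SE 0.125).

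Slc16a8 encodes MCT3, the lactate transporter of the basolateral membrane, which within the eye is largely restricted to the RPE. It lies on the minus strand at chr15:79251014-79254761 (ENSMUSG00000032988, 5 exon blocks, 2276 bp). Untreated wild-type libraries held 448, 505, 509 and 482 CPM and wild-type libraries with hydroquinone 509.9, 522, 498 and 502 CPM. Untreated knockout libraries held 587, 431, 605 and 452 CPM and knockout libraries with hydroquinone 442, 483, 619 and 729 CPM. The wild-type libraries were close together, at 508 ± 10.8 CPM with hydroquinone, and the knockout libraries were spread more widely, at 568 ± 131 CPM with hydroquinone, with the means of all 4 groups inside the knockout range. The log2 fold change was 0.10 (SE 0.108) with hydroquinone and 0.13 (SE 0.108, interval of 0.932-fold to 1.28-fold) with knockout.

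Bsg encodes basigin, the immunoglobulin-family chaperone that carries both lactate transporters to the membrane. The gene is on the plus strand at chr10:79704491-79711969 (ENSMUSG00000023175, 7 exon blocks, 1814 bp). Wild-type libraries averaged 1809.5 ± 135 CPM untreated and 1765 ± 149 CPM exposed, and knockout libraries 1946 ± 228 and 1798 ± 286 CPM (SD, 4 libraries a group), so the 4 means differed by less than the SD of the exposed knockout group. It had the smallest relative spread of the 9, with a coefficient of variation of 10.9% over 16 libraries against 28.9% for Best1. The log2 fold change was -0.07 (SE 0.0943) with hydroquinone and 0.07 (SE 0.0943) with knockout.

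**Figure D2:**
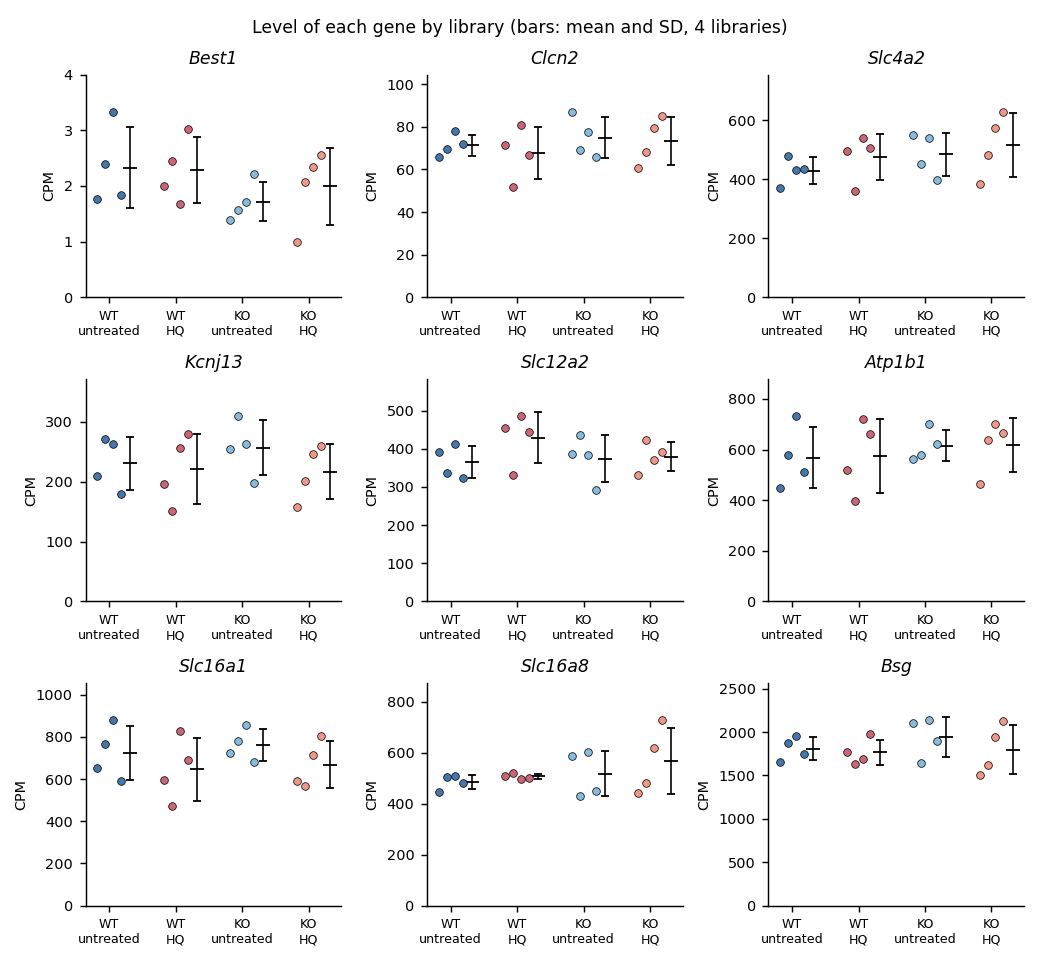
CPM of each of the 9 genes in the 4 groups (WT wild type, KO knockout, HQ hydroquinone), with 1 point per library and bars for the mean and SD of 4 libraries. In every panel the points of the 4 groups overlap, and the widest relative spread is that of Best1, from 0.988 to 3.33 CPM.

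Hydroquinone was tested within each genotype and averaged over both, with edgeR's quasi-likelihood test and Benjamini-Hochberg adjustment over 15380 genes. In wild type 0 of 9 members passed, where 0.0065% of all genes tested did. In knockout 0 of 9 passed against 0.0455% of genes, and averaged over genotype 0 of 9 passed against 0.0845%, which is 13 genes. With so few genes called, 0 of 9 is what the background gives and shows nothing particular to these genes. By unadjusted p below 0.05, 879 genes and 0 members were found for the average. The averaged log2 fold changes of the members ran from -0.17 (Slc16a1) to 0.12 (Slc12a2), with 5 above and 4 below 0 and a median of 0.01, and the median over all genes tested was 0.0046. Adjusted p-values for the 9 lay between 0.914 and 0.992 by edgeR.

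Knockout was compared with wild type in the same way, untreated, under hydroquinone and averaged. In each of these, 0 of 9 members and 0.0% of all genes passed, while 203, 643 and 456 genes had an unadjusted p below 0.05 by edgeR, with 0 members among them. DESeq2 called 3 genes under hydroquinone and no member. Averaged log2 fold changes ran from -0.32 (Best1) to 0.15 (Slc4a2), with 7 members above and 2 below 0. Their median was 0.07, and that of all genes tested was 0.02. The adjusted p was 0.987 for all 9.

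Whether hydroquinone acted differently in the 2 genotypes was tested by the interaction, in which 0 of 9 members and 0.0% of all genes passed by edgeR, 296 genes having an unadjusted p below 0.05 with 0 members among them. The interaction is the least precise of the comparisons: its intervals stayed within 1.5-fold either way for 5 of 9 members and within 2-fold for 8, Best1 being the exception with 0.588-fold to 2.35-fold. For hydroquinone averaged and knockout averaged, intervals stayed within 1.5-fold for 8 of 9 members, again all but Best1, and within 2-fold for 9. These 2 widths were chosen after the values were seen.

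**Figure D3:**
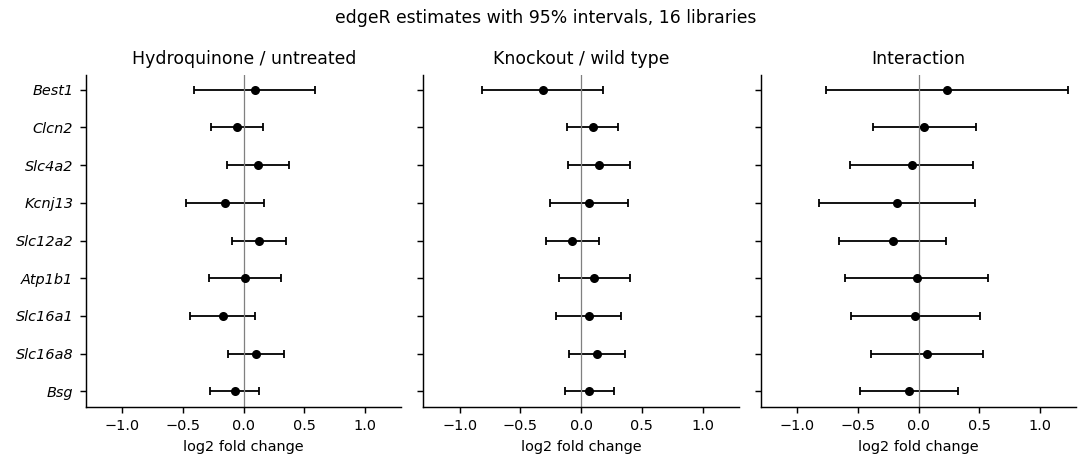
Log2 fold change of each gene for hydroquinone averaged over genotype, knockout averaged over treatment and their interaction, with 95% intervals derived from edgeR's F statistic. Every interval crosses 0, and Best1 has the widest, from -0.41 to 0.59 for hydroquinone.

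The members did not vary independently across the libraries. Over 16 libraries, each a different eye and some of the same mouse, Pearson's r of log2(CPM + 1) was 0.861 for Kcnj13 with Slc16a1, 0.828 for Clcn2 with Slc4a2, 0.777 for Atp1b1 with Slc16a1, 0.766 for Slc16a8 with Slc4a2 and 0.750 for Slc16a8 with Bsg. The 2 lactate transporters were less alike, at 0.326, and the lowest of the 36 pairs was Slc12a2 with Bsg, at 0.0203. Wild type with hydroquinone replicate 2 held the lowest level of 5 of the 9 genes, Atp1b1, Kcnj13, Slc16a1, Slc4a2 and Clcn2, and it also had the lowest score of RPE markers (9.65, against a median of 10.1, as the mean log2(CPM + 1) of 10 markers) and the highest score of the 6 corneal epithelium markers (10.9, against a median of 9.22). The part of either in the low levels was not tested. Wild type with hydroquinone replicate 1 had a corneal score of 10.886 (replicate 2, 10.906) and held the lowest level of no member. These libraries also differed in RPE score (9.862 in replicate 1, 9.647 in replicate 2) and oligodendrocyte score (7.152 and 3.36). Setting them side by side therefore cannot separate these parts.

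Among 10824 genes of mean CPM 10 or more, those most like each member over the 16 libraries were taken by their Pearson r, as a description. Kcnj13 was nearest to Ddhd2 (0.929) and to Rrh (0.928), which encodes the RPE opsin peropsin. Slc16a1 was nearest to Lrat (0.933), the retinol-esterifying enzyme of the visual cycle, and to Slc22a8 (0.926). Slc4a2 was nearest to Calcoco1 (0.963) and Stra6 (0.949), the receptor for retinol-binding protein. Slc16a8 was nearest to Ptgds (0.908) and Vasn (0.905), Bsg to Adra2c (0.951) and Calm3 (0.901), and Atp1b1 to Pcdhb14 (0.965) and Vat1l (0.962). Clcn2 was nearest to Cyp4f17 (0.934) and Cspg4 (0.925), and Slc12a2 to Twf1 (0.905) and Snap23 (0.892). Best1 had the weakest likeness, its nearest gene being Rheb (0.783).

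Partner genes were also set against each other within a library, as ratios of CPM, which are free of the library total. The pairs were chosen after the values per library had been seen, so they are described without a test. Of those examined, 5 are given over mice, 5 untreated and 8 with hydroquinone, as geometric means. How often other pairs of genes give like counts of exposed mice outside the untreated range was not computed. The counts below therefore describe these pairs only and show no effect of hydroquinone. The ratio of Slc16a1 to Slc16a8, the apical to the basolateral lactate transporter, was 1.51 in untreated mice and 1.22 with hydroquinone. Untreated wild-type mice stood at 1.46 and 1.49 and untreated knockout mice at 1.32, 1.51 and 1.81. Exposed wild-type mice stood at 0.906, 1.17, 1.38 and 1.66 and exposed knockout mice at 1.10, 1.15, 1.17 and 1.33. Of the exposed mice, 7 of 8 lay below the untreated median and 5 below the lowest untreated mouse, and the groups overlapped. Against single untreated eyes, 5 of 8 exposed eyes lay below the lowest, at 1.23. The difference was -0.31 on the log2 scale, -0.24 in wild type and -0.37 in knockout.

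Slc16a8 to Bsg, the basolateral transporter against its chaperone, was 0.263 in untreated and 0.300 in exposed mice, with 7 of 8 exposed mice above the highest untreated one and a log2 difference of 0.19. Slc16a1 to Bsg was 0.397 in untreated and 0.366 in exposed mice, a log2 difference of -0.12 that ran from -0.18 to -0.06 with 1 library left out. Slc4a2 to Clcn2, the anion exchanger against the chloride channel, was 6.23 in untreated and 7.01 in exposed mice, and 7 of 8 exposed mice lay above the highest untreated one, the exception being a knockout mouse at 6.31. Its log2 difference was 0.17, and 0.29 among libraries below the median rod score. Exposed mice gave 1 eye each while 3 of the 5 untreated values average 2 eyes, and against single untreated eyes, which reached 6.96, only 5 of 8 exposed eyes were higher. Slc12a2 to Kcnj13, the chloride loader against the potassium channel, was 1.51 in untreated and 1.88 in exposed mice, a log2 difference of 0.31, but that difference was 0.05 among libraries whose identifier in the sample description carries a letter (R or S) in its running number and 0.07 among libraries below the median rod score. In all 5 ratios the untreated and exposed mice overlapped.

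**Figure D4:**
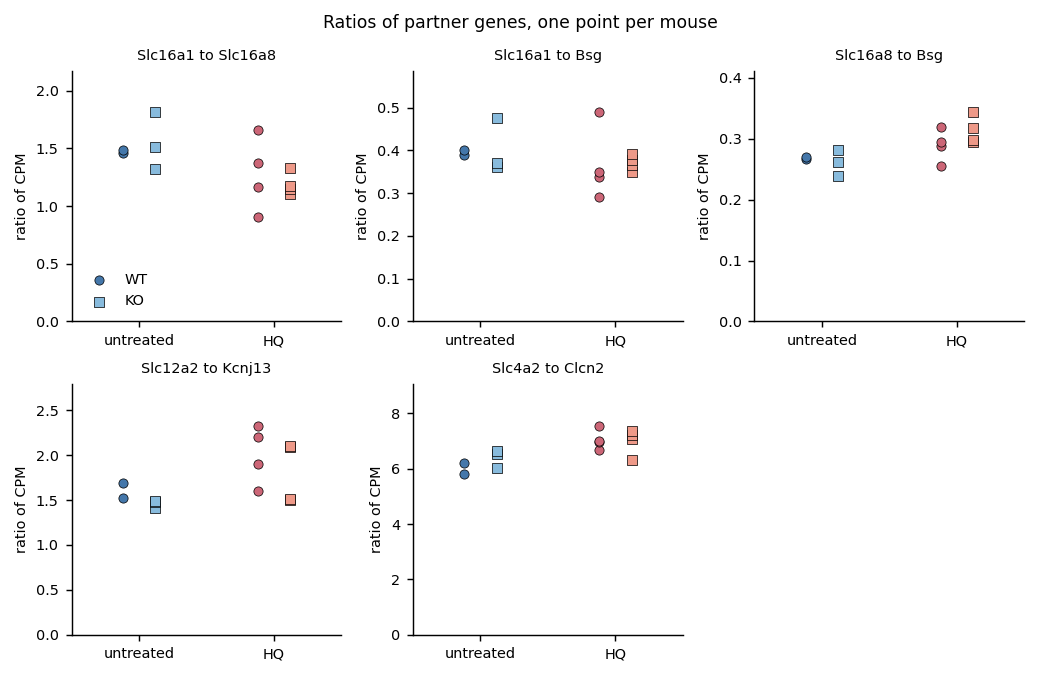
Ratio of CPM for the 5 pairs of partner genes, on linear axes from 0, with 1 point per mouse, by treatment (HQ hydroquinone), circles for wild type (WT) and squares for knockout (KO). Exposed mice lie lower for Slc16a1 to Slc16a8 (geometric mean 1.22 against 1.51) and higher for Slc4a2 to Clcn2 (7.01 against 6.23), with overlap in every pair.

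Levels of the members were set against rod RNA. The rod score, the mean log2(CPM + 1) of 12 markers, averaged 7.22 ± 1.60 and 6.63 ± 1.45 in untreated and exposed wild-type libraries, and 6.35 ± 2.91 and 4.98 ± 3.23 in the knockout ones (SD, 4 libraries a group). Over the 13 mice, Pearson's r with the score was negative for all 9 members, from -0.725 for Slc4a2 to -0.303 for Slc16a1, whereas the median over all genes tested was 0.00908 and 49.3% of genes had a negative r. The 10 RPE markers that are not members lay in the same range: r was negative for all 10, from -0.868 to -0.305 with a median of -0.60, against a median of -0.53 for the members, so the relation was not particular to the transport genes. Nor was it particular to the RPE. Scores of macrophage (-0.685), fibroblast and sclera (-0.442), ciliary body and iris (-0.363) and endothelium (-0.326) had a negative r. Scores of other neural retina (0.957), skeletal muscle (0.732), oligodendrocyte (0.319) and corneal epithelium (0.166) had a positive r. Slc4a2 alone passed after adjustment over 15380 genes, where 3.81% of genes were called in the negative direction: its permutation p was 0.00574, adjusted 0.0463, and Spearman's coefficient was -0.769, p 0.00322, adjusted 0.0423. That call was marginal: without the 2 mice farthest from the median rod score r was -0.587 over 11 mice with a permutation p of 0.0606, which no longer passes. With group means removed r was -0.691. Within the 8 libraries without and the 8 with a letter in the identifier, r was -0.487 and -0.852. For Kcnj13 r was -0.628 (Spearman's -0.637, permutation p 0.0218 for both), adjusted 0.11, and r was -0.614 without the 2 farthest mice. The 7 other members had adjusted p-values from 0.191 to 0.562, and all 9 coefficients stayed negative without the 2 farthest mice, from -0.684 to -0.172. The part of rod RNA in the members' levels was not tested. With the rod score as a covariate, 0 of 9 members passed in any of the 7 comparisons.

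**Figure D5:**
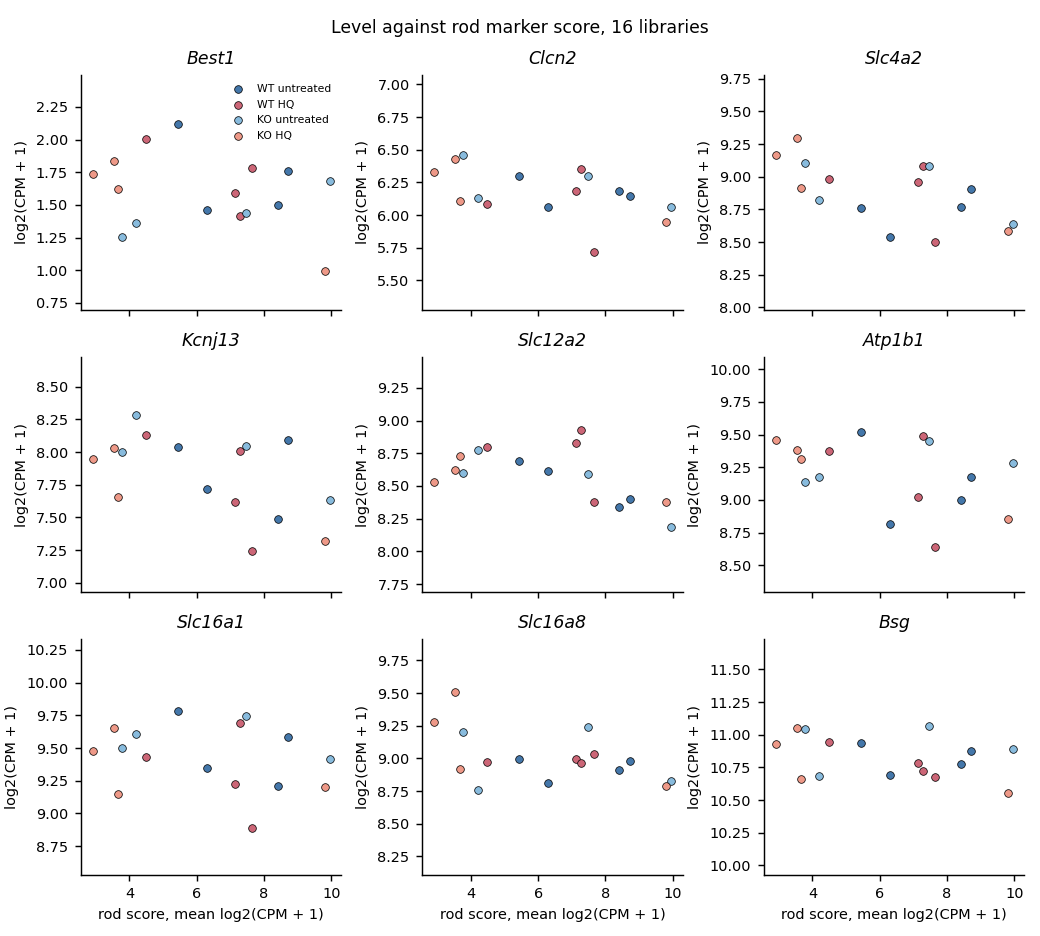
Level of each gene, as log2(CPM + 1), against the rod score, with 1 point per library for 16 libraries, coloured by group (WT wild type, KO knockout, HQ hydroquinone). Points lean downwards to the right in each panel; over the 13 mice r runs from -0.725 for Slc4a2 to -0.303 for Slc16a1.

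A wider list of 57 other genes of RPE ion, fluid and lactate transport was read in the same fits, of which 56 were tested, Slc5a12 having no counts. None of the 56 passed in any of the 7 comparisons in either direction. With hydroquinone averaged over genotype, 18 lay above and 38 below 0, where 48.8% of all genes tested lay below 0, and the median was -0.06 against 0.0046 over all genes. An unadjusted p below 0.05 was found for 6 of the 56 and for 5.72% of all genes. The 2 with the smallest p were Aqp4, the water channel of retinal glia and astrocytes, at -1.06 (SE 0.338, adjusted p 0.761 by edgeR), and Fxyd1, a regulator of the sodium pump, at -0.49 (SE 0.182, adjusted p 0.823 by edgeR). Kcnj10, the potassium channel Kir4.1 of glia, stood at -1.42 and was named after its values were seen. Beside these, the score of the 6 oligodendrocyte markers averaged 7.32 ± 2.74 and 4.23 ± 1.97 in untreated and exposed wild-type libraries and 7.11 ± 1.68 and 5.67 ± 2.46 in the knockout ones (SD, 4 libraries a group), with Mog from 0 to 94.4 CPM and Mbp from 82.2 to 3917 CPM. The score of 6 ciliary body and iris markers, which include Aqp4 itself, averaged 5.69 ± 0.0611 and 5.29 ± 0.259 in untreated and exposed wild-type libraries and 5.71 ± 0.11 and 5.74 ± 0.18 in the knockout ones. The part of either tissue's RNA in these 3 values was not tested.

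With knockout averaged over treatment, 48 of the 56 lay above and 8 below 0, where 55.7% of all genes tested lay above 0, with a median of 0.15 against 0.02 over all genes. An unadjusted p below 0.05 was found for 1 of the 56 and for 2.96% of all genes. The chloride transporter Clcn4, the next by p, stood at 0.15 (SE 0.0761, unadjusted p 0.061, adjusted p 0.987 by edgeR). Among the 5 genes of the list with the highest levels per kilobase were Slc2a1 (302 CPM per kb), the glucose transporter GLUT1, Car14 (294), a membrane carbonic anhydrase, Ldhb (288), a lactate dehydrogenase subunit, and Atp1b3 (153), the beta-3 subunit of the sodium pump. Atp1b3 lay below the mean of Atp1b1 at 193 CPM per kb and the other 3 above it, and Bsg was above all of them.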

How the data were processed

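Reads had been sequenced on an Illumina NovaSeq, per the labels' protocols, and the submitters' processing notes name STAR, Cufflinks, DESeq2 and mm10, without versions or roles. The deposited values are whole-number read counts per Ensembl gene, although the table's name says FPKM, and the strand setting is not given in the sources used here. Identifiers were matched to GENCODE vM21 (GRCm38), 51633 of 51912, which also gave coordinates and exon lengths.

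From the deposited counts, a filter kept the genes whose mean CPM was at least 1 (15380 genes, 99.8% of counts), which were tested with edgeR 4.0.16 (R 4.3.3) by its quasi-likelihood F test, with TMM scaling, all 16 libraries and group means. P-values were adjusted over all genes tested by the Benjamini-Hochberg method at 0.05. The SE of a log2 fold change was derived as its absolute value divided by the square root of the F statistic. The 95% intervals were derived from that SE with a t quantile. CPM used TMM-scaled library sizes, so levels are relative to each library's total. Eyes of 1 mouse entered as separate libraries; the consensus correlation of eyes of a mouse was -0.0202 (limma 3.58.1). The protocol text and the titles differ on the number of mice, and the titles were followed. On simulated counts for hydroquinone averaged over genotype, with 200 of 15380 genes changed, the test found 73% of the genes changed 2-fold and 96% of those changed 4-fold, and 3 of its 172 calls were false.

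The genes named were the 9 members; per member the 2 genes of highest likeness; and of the wider list the 2 with the smallest p and the 5 highest per kilobase. Exceptions are marked where they occur. Some values that these rules gave, and 1 further partner ratio, are not reported here. The members and lists were chosen with earlier results of these data known. Alternatives were another scaling, no filter, DESeq2 1.42.0, eyes summed, the mouse as a block in limma, identifier form or rod score as a covariate, and each library left out. The rod relations used 100000 resamples and, with the partner ratios, were added after the data had been seen. Permutation p-values of the ratios were computed but are not reported, because the ratios had been chosen after their values were seen. The rod relations were first adjusted over the 9 members alone, where Pearson's p for Slc4a2 did not pass, and then over all genes tested, as reported.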

Additional observations from a re-analysis of the deposited data

Results flagged for a closer look

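In groups of 4 libraries, a sample was marked when its gap to the nearest other sample, as a share of the group's range, exceeded Dixon's 95% critical value. Over the 60 sets of 4 searched, chance gives about 3.0 such marks (1 in 20) and 2 were found, both in the rod score. In wild type with hydroquinone, replicate 4 had the lowest rod score, 4.48, against 7.13 to 7.65 in the other 3 (share 0.834). In knockout with hydroquinone, replicate 1 had the highest, 9.80, against 2.91 to 3.67 in the other 3 (share 0.89). That second library also held the lowest level of Best1 (0.988 CPM) and of Bsg (1504 CPM) among the 16. No member was marked in any group. Scores of the other marker lists were not among the sets searched, and some of them also had a library far from its group. In wild type with hydroquinone, for example, the oligodendrocyte score was 7.15 in replicate 1 and 2.91 to 3.49 in the other 3.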

How the results depend on the processing

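No member passed the test in any of the 7 comparisons under any alternative run: the lowest adjusted p over them was 0.555 for hydroquinone averaged, 0.617 for knockout averaged and 0.999 for the interaction, over 216 values each. The number of all genes called did move. For hydroquinone in wild type (1 gene) it was 2 with median-of-ratios scaling, 20 with DESeq2, 3 with the mouse as a block in limma, 2 with identifier form and 4 with rod score as a covariate, and 1 to 3 with a library left out. For hydroquinone in knockout (7 genes) it was 14 with DESeq2, 3 with eyes summed, 4 with identifier form, and 3 to 11 with a library left out, the 11 being without knockout with hydroquinone replicate 1. For hydroquinone averaged (13 genes) it was 39 with DESeq2, 6 with eyes summed, and 7 to 15 with a library left out. For knockout under hydroquinone (0 genes) it was 3 with DESeq2. The cause of these moves was not tested.

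Several log2 fold changes close to 0 changed sign. With rod score as a covariate, hydroquinone averaged gave -0.0243 for Best1 and -0.0465 for Atp1b1, and knockout averaged gave -0.0541 for Kcnj13. The limma fit gave -0.0037 for Atp1b1 with hydroquinone. With a library left out, hydroquinone averaged ran from -0.1014 to 0.0016 for Clcn2 and from -0.0538 to 0.0830 for Atp1b1. Knockout averaged ran from -0.0074 to 0.1317 for Kcnj13 and from -0.0008 to 0.1309 for Slc16a1. The interaction ran from -0.0640 to 0.1419 for Clcn2, -0.1620 to 0.1115 for Atp1b1, -0.1512 to 0.1121 for Slc16a1, -0.0764 to 0.1691 for Slc16a8 and -0.1680 to 0.0632 for Slc4a2. The sign of these was not fixed by the data. Each of the 5 partner ratios kept the sign of its difference whichever library was left out. Since the pairs were chosen after their values were seen, this describes the ratios and does not test them. Without 1 library, hydroquinone averaged moved by more than 1.5 times with the same sign for every member that kept its sign. It ran from 0.01 to 0.2032 for Best1 and from 0.0267 to 0.1494 for Slc16a8. The ranges were -0.2211 to -0.082 for Kcnj13, 0.0631 to 0.177 for Slc12a2 and -0.2426 to -0.1109 for Slc16a1. For Bsg it was -0.1197 to -0.0366 and for Slc4a2 0.0661 to 0.1803.

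No analysis paired across groups was possible because each mouse lay in a single group. Untreated wild type rests on 2 mice, and depth limited Best1 most, at 29 to 85 counts a library.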
